A study of Mus musculus with 8 samples.

Results

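The comparison of reprogramming with vitamin B12 (OSKM B12) against unreprogrammed mouse embryonic fibroblasts (MEF) asked how much H3K36me3 gene bodies carried after 72 h, and which genes returned to the MEF level, passed it or stayed under it. The cells were fibroblasts of 1 embryo at E13.5, labelled Clone 1, from mice with a doxycycline-inducible cassette of Oct4, Sox2, Klf4 and Myc (OSKM). MEF cells carried the cassette as well and had the medium used for induced pluripotent stem cells with neither doxycycline nor added B12, and OSKM B12 cells had that medium with 1 µg/mL doxycycline and 2 µM B12. The OSKM condition (doxycycline alone) and the MEF B12 condition (B12 alone) serve here as reference points. Each condition had 1 H3K36me3 ChIP library and 1 input library, so the comparison rests on 4 of the 8 libraries and has no replicate check. No p-value was computed, and the 95% intervals cover counting error only. The antibody appears in the protocol of the labels as H3K3me3 and in the sample field as H3K36m3.

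H3K36me3 is trimethylation of lysine 36 of histone H3. In mammals it is laid down largely by SETD2, which travels with elongating RNA polymerase II, so the mark accumulates over the bodies of transcribed genes and rises toward their ends. It is known for helping to keep transcription from starting inside gene bodies and for recruiting DNA methyltransferases and splicing regulators. The methyl groups come from S-adenosylmethionine, which is renewed through methionine synthase, an enzyme that uses vitamin B12 as its cofactor. In fibroblasts undergoing reprogramming, mesenchymal genes are switched off early, epithelial genes follow and the endogenous pluripotency network comes later.

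The members were protein-coding gene bodies of GENCODE M21 on chromosomes 1 to 19 of mm10. For each body, the density was the sum of peak pileup times overlap, divided by the length of the body and by the H3K36me3 tags of the library per 1000000, and its unit is scaled pileup per base. Of 20807 gene bodies, 9562 (46.0%) were covered by peaks over at least 10% of their length in MEF, OSKM or OSKM B12 and were compared. The other 11245 did not reach this coverage in any of those libraries. MEF had 32582688 tags after filtering and OSKM B12 had 29627886. For 2 genes that rose and 2 that fell, the sequence of an intronic stretch called in one of the libraries and not in the other is printed here, so that the DNA behind a gain or a loss can be seen. Each line gives 200 bases of the plus strand (RefSeq GRCm38.p6, the mm10 build), with CG dinucleotides in capitals.
Card10: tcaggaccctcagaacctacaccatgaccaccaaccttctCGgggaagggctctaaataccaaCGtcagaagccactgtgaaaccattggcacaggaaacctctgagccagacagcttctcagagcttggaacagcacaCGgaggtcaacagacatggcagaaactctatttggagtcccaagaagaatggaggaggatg
Tek: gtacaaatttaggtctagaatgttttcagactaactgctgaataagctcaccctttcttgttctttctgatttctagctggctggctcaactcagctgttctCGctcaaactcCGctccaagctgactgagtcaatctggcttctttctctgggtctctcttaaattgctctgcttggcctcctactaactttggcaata
Cthrc1: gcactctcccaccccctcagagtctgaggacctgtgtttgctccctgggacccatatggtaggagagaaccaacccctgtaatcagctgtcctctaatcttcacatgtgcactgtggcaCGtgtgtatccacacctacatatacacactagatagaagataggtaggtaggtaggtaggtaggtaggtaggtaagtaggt
Klf5: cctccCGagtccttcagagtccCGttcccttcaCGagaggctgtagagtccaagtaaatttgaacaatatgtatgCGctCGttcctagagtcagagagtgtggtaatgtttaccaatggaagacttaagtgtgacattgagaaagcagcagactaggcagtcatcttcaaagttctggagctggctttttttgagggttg

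The Card10 window lies at chr15:78797970-78798169 and the Tek window at chr4:94862620-94862819, both inside OSKM B12 peaks and outside MEF peaks. The Cthrc1 window lies at chr15:39085895-39086094 and the Klf5 window at chr14:99309753-99309952, both inside MEF peaks and outside OSKM B12 peaks. The windows held 3, 2, 1 and 5 CG dinucleotides in that order, and their G+C contents lay between 44.0% (Tek) and 51.5% (Card10). The OSKM B12 peaks there had scaled pileups of 0.413 over the Card10 window and 0.551 over the Tek window. The MEF peak over the Cthrc1 window had 0.504. The fold enrichments over input of these peaks ranged from 2.46 (Klf5) to 3.33 (Tek), beside a median over all peaks of 2.66 in MEF and 2.73 in OSKM B12.

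H3K36me3 marked the fibroblast genes in both libraries. Of 24 fibroblast markers on the chromosomes compared, 23 reached the coverage minimum. Their summed density was 13.0 in MEF and 15.3 in OSKM B12. Among macrophage and leukocyte markers 5 of 17 reached it, among endothelial markers 3 of 13, among neural markers 1 of 11 and among erythroid markers 0 of 9. The summed densities of these lists were 1.15 in MEF and 1.45 in OSKM B12, 0.206 and 0.270, 0.117 and 0.107, and 0 and 0. Ptprc, Tyrobp, Aif1, Pecam1, Cdh5, Tie1 and Sox10, which mark these other cell types, had no peak in any of the 4 libraries. Most of the macrophage sum came from Cd68, with 0.782 in MEF and 0.926 in OSKM B12. The other members of that list compared, Csf1r, Cx3cr1, Laptm5 and C1qb, had 0.127, 0.172, 0.0405 and 0 in MEF. In OSKM B12 they had 0.166, 0.210, 0.0623 and 0.0411, whereas Lyz2 had 0.0220 in MEF and no peak in OSKM B12. Of the 17 macrophage and leukocyte markers, 11 had no peak in MEF and 8 had none in OSKM B12. The only neural marker compared, Tubb3, has a body that lies wholly within another protein-coding gene.

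OSKM B12 gene bodies carried more H3K36me3 than MEF gene bodies. The mean density was 0.305 in MEF, 0.362 with B12 alone, 0.167 with OSKM alone and 0.383 in OSKM B12. OSKM B12 was therefore the highest of the libraries and OSKM the lowest. The log2 change from MEF to OSKM B12, with 0.05 added to each density, had a median of 0.27 (1.20-fold) and quartiles of 0.15 and 0.39, and all but the outer 5% at either end lay between -0.08 and 0.71. It was positive in 8761 genes (91.6%). The median from MEF to OSKM was -0.70 and from MEF to MEF B12 it was 0.21, and all of these comparisons share the MEF library. Densities are relative to the tags of each library, so a difference in H3K36me3 across all genes and a difference in how well the immunoprecipitation enriched cannot be told apart.

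**Figure D1:**
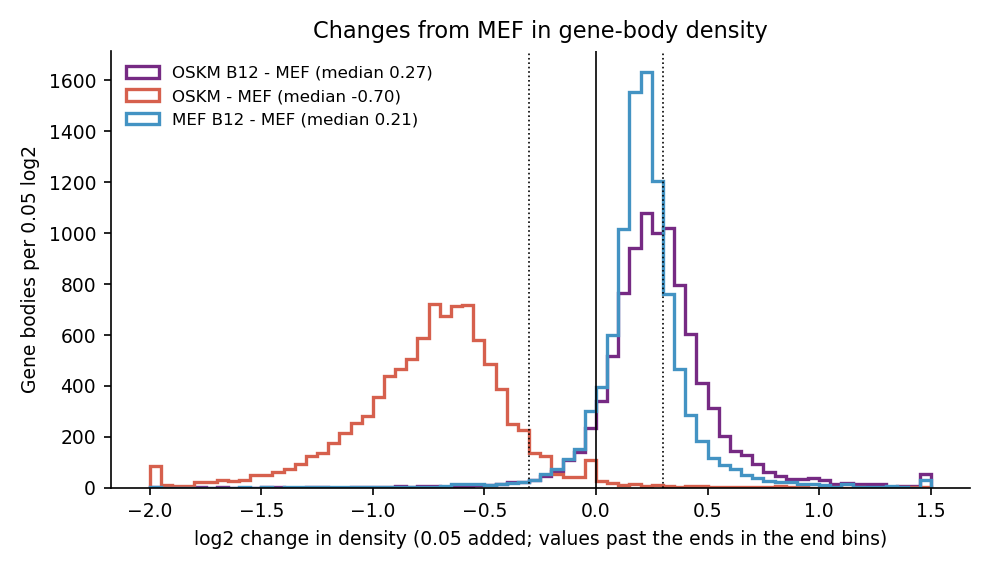
Histogram of log2 changes in gene-body density from MEF (x axis) against the number of gene bodies per 0.05 log2 (y axis) for OSKM B12, OSKM and MEF B12, 1 library each, over 9562 genes. The OSKM B12 curve has its median at 0.27, the MEF B12 curve at 0.21 and the OSKM curve at -0.70, and dotted lines mark 0.3 and -0.3.

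Both the pileup and the coverage of gene bodies were higher in OSKM B12. Peaks covered 47.8% of a gene body on average in MEF and 51.2% in OSKM B12, a ratio of 1.07. Coverage was larger in OSKM B12 for 6817 genes, smaller for 2686 and equal for 59. Over gene-body bases called in both libraries the mean scaled pileup was 0.622 in MEF and 0.729 in OSKM B12, a ratio of 1.17. It was higher in OSKM B12 for 8889 of 9360 genes. OSKM B12 had 0.909 of the tags of MEF, and the ratio was 1.07 before the division by tags, the same as that of coverage. With peaks limited to a −log10 q of at least 5, coverage rose by a ratio of 1.20 and pileup by 1.19, so which of them contributed more depended on the setting. MEF and OSKM B12 shared 131.2 Mb of peaks, which was 87.2% of the MEF peak bases and 80.7% of those of OSKM B12.

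Peaks of OSKM B12 more often spanned several MEF peaks than the reverse. Of 67234 OSKM B12 peaks, 10147 (15.1%) touched at least 2 MEF peaks, whereas 7379 of 64885 MEF peaks (11.4%) touched at least 2 OSKM B12 peaks. Conversely, 18868 OSKM B12 peaks (28.1%) touched no MEF peak and 11970 MEF peaks (18.4%) touched no OSKM B12 peak.

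The increase extended along the whole gene body. Each body was divided into 20 bins from start to end, and the mean density in MEF rose from 0.0196 in the first bin to 0.473 in bin 19. OSKM B12 rose from 0.0276 to 0.582 over the same bins. The ratio of OSKM B12 to MEF fell from 1.41 in the first bin to 1.23 in the last, while the difference in density grew from 0.00796 to 0.110 in bin 18. Relative to MEF, then, the surplus was largest near gene starts, where there was little mark, and in absolute terms it was largest near the ends. The OSKM library had its lowest ratio to MEF, 0.436, in the third bin, and MEF B12 had a ratio of 1.28 in the first bin and 1.17 in the last.

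**Figure D2:**
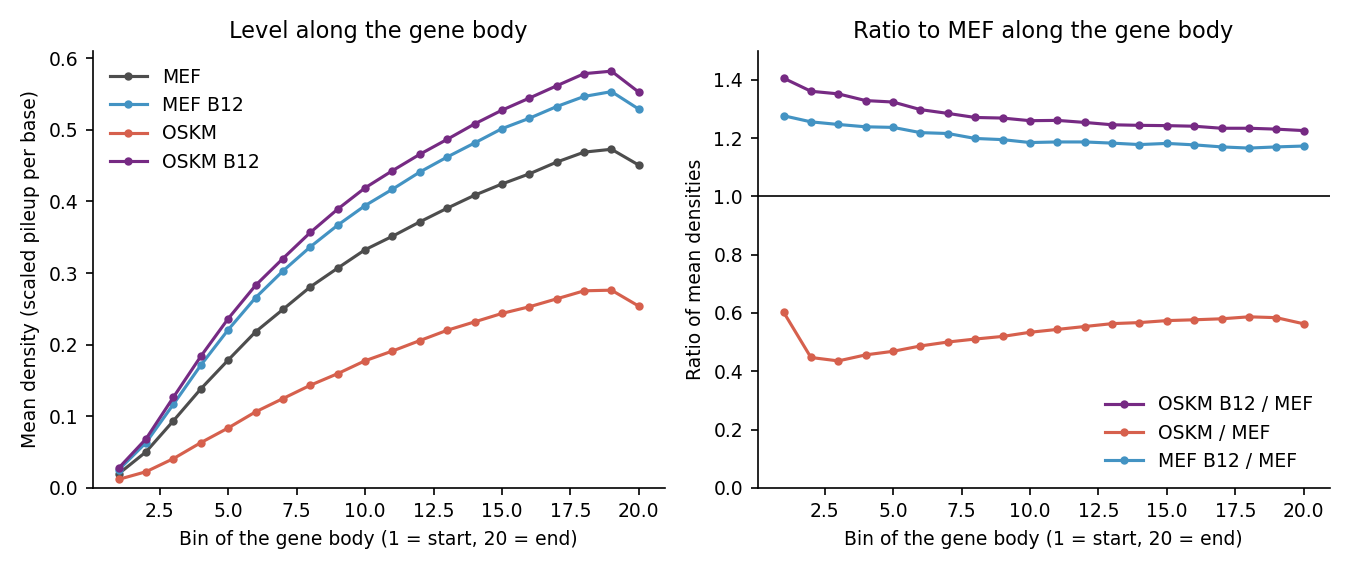
Mean H3K36me3 density (left, scaled pileup per base) and its ratio to MEF (right) in 20 bins from the start to the end of 9562 gene bodies, 1 library per condition. The OSKM B12 line lies above MEF in every bin, with a ratio from 1.41 at the start to 1.23 at the end, and the OSKM line lies below MEF in every bin.

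With a log2 change of 0.3 in either direction as the limit, 4115 of 9562 genes (43.0%) were above the MEF level in OSKM B12, 169 (1.77%) were below it and 5278 (55.2%) were within it. Relative to the median shift of 0.27, 890 genes (9.31%) were above and 633 (6.62%) below. The limit cuts through the bulk of the distribution, with 1019 genes less than 0.05 past the upper limit and 1001 less than 0.05 short of it. Counts above the MEF level therefore describe the shift of all genes as much as single genes.

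Among the 9562 genes, 8879 (92.9%) were lower in OSKM than in MEF by at least 0.3 and 79 (0.826%) were higher by as much. Of the 8879 lower genes, 5187 (58.4%) were within 0.3 of the MEF level in OSKM B12 (returned), 3526 (39.7%) were above it (overshot) and 166 (1.87%) were still below it (stayed below). The remaining 683 genes had not been lower in OSKM. OSKM B12 exceeded OSKM in 8837 of the 8879 lower genes and did not in 42. The density regained, as a percentage of the difference between MEF and OSKM, had a median of 149% and quartiles of 123% and 184%. Most lower genes thus ended past the MEF level, also where the excess was under the limit. The number that overshot depended on the scaling, with 1510 when pileup was not divided by tags and 76 when both changes were centred on their medians.

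**Figure D3:**
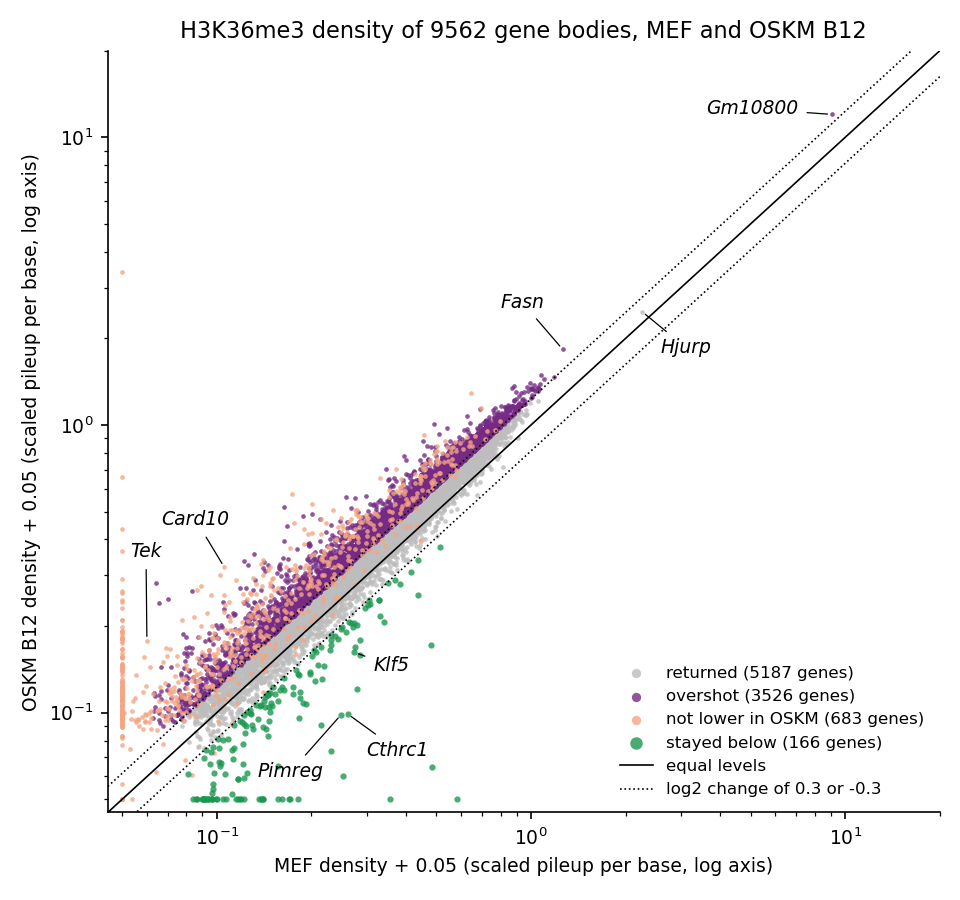
Density in MEF (x axis) against density in OSKM B12 (y axis), each with 0.05 added, on log axes, 1 point per gene body and 1 library per condition, coloured by class. Most of the 9562 points lie above the line of equal levels, the 166 genes that stayed below lie under the lower dotted line, points along the left edge had no MEF peak, and Gm10800, a short predicted gene, lies far from the rest at the upper right.

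The overshot genes were shorter and richer in G+C than the returned genes. Their median length was 17890 bases against 27670, and their median G+C content was 49.5% against 44.0%. Their median density was 0.301 in MEF and 0.420 in OSKM B12, against 0.292 and 0.331 in the returned genes. Both classes thus started from similar levels in MEF. Of the overshot genes, 3155 (89.5%) were also higher in OSKM B12 than in MEF B12, beside 63.5% of all genes compared. The class was picked for a high OSKM B12 level, which by itself raises that share, so no conclusion is drawn from it.

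Levels are ranked here among genes of at least 3000 bases that overlap other genes by at most 10%, which leaves out short genes such as Gm10800 (755 bases, 9.01 in MEF), an overshot gene above all others. Within these limits, the overshot genes with the most H3K36me3 were Fasn (fatty acid synthase), Kmt2d (a histone H3 lysine 4 methyltransferase), Eef2 (the translocation factor of translation) and Rnf213 (a large E3 ubiquitin ligase). Fasn, at chr11:120805846-120824547, had densities of 1.21 in MEF, 1.47 with B12 alone, 0.816 with OSKM alone and 1.78 in OSKM B12. The OSKM B12 level was 1.48 times the MEF level (95% interval 1.40 to 1.55). The OSKM B12 library was the highest and OSKM the lowest, and peaks covered between 87.0% and 90.6% of the body in all 4, so that nearly the whole difference was in pileup. Kmt2d had 1.03, 1.22, 0.685 and 1.44 in the same order of libraries, with an OSKM B12 to MEF ratio of 1.40 (1.35 to 1.46). Eef2 had 1.05, 1.40, 0.711 and 1.40, and its MEF B12 and OSKM B12 levels coincided. Rnf213 had 1.13, 1.40, 0.681 and 1.41 and behaved like Eef2.

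Among the genes that returned, and within the same limits of length and overlap, the highest levels were those of Hjurp (the chaperone of the centromeric histone CENP-A), Prpf8 (a core protein of the spliceosome), Ddb1 (an adaptor of CUL4 ubiquitin ligases) and Kpnb1 (importin beta). Hjurp had 2.21 in MEF, 2.51 with B12 alone, 1.44 with OSKM alone and 2.43 in OSKM B12. Its fold enrichment over input was 3.79 in MEF and 4.10 in OSKM B12, no larger than that of Cd68 (5.48 and 5.41), whose density was under 1. Prpf8 had 0.943, 1.15, 0.573 and 1.15, with an OSKM B12 to MEF ratio of 1.21 (1.15 to 1.28). Kpnb1 had 0.915, 1.08, 0.546 and 1.08, and Ddb1 ended at a ratio of 1.16 (1.10 to 1.22). Returned genes were thus not at the MEF level exactly, and for these examples the OSKM B12 and MEF B12 libraries lay together above MEF.

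The 166 genes that stayed below were short and weakly marked. Their median length was 6918 bases, beside 21490 for all genes compared, and 90 of them were under 10000 bases. Their median density was 0.0959 in MEF, 0.0911 with B12 alone, 0.00795 with OSKM alone and 0.0452 in OSKM B12, and 69 of them had no OSKM peak. Median coverage was 22.0% in MEF and 10.1% in OSKM B12. Over bases called in both libraries, in the 127 genes that had any, the median log2 difference in pileup was 0.03, beside 0.22 over all genes. Such bases passed the peak threshold in both libraries, so at these weak levels a loss can show mainly as lost coverage. When only genes covered over at least 30% were compared, 59 stayed below. A small number of tags can decide whether a weak peak is called, and densities of such genes carry that threshold.

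Within the limits of length and overlap given above, the most strongly marked of them were Aspm (a spindle-pole protein of dividing cells), Cdc20 (the activator of the anaphase-promoting complex), Cggbp1 (a CGG-repeat binding protein) and Ccdc90b (a mitochondrial coiled-coil protein). Cdc20, at chr4:118432901-118437352, had 0.463 in MEF, 0.501 with B12 alone, 0.241 with OSKM alone and 0.326 in OSKM B12. Its OSKM B12 level was 0.702 of the MEF level (0.571 to 0.864). Aspm had 0.255, 0.283, 0.0541 and 0.196, a ratio of 0.767 (0.700 to 0.841). Ccdc90b had 0.282, 0.280, 0.0559 and 0.167, a ratio of 0.593 (0.522 to 0.675). Shorter genes had levels as high, among them Gm10226 (255 bases), with 0.530 in MEF and no peak in OSKM or OSKM B12, and Cox5b (2233 bases), with 0.277 in MEF and 0.197 in OSKM B12. In Cdc20, Aspm and Ccdc90b both libraries without doxycycline were above both libraries with it.

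Of the genes lower by density, by coverage, by pileup over shared bases and after centring on the median, those with the largest falls in density, within the same limits of length and overlap, were Cthrc1, Pimreg, Ranbp6, Gstm2, Klf5 and Serpina3g. Coverage was lower in OSKM B12 in each of them. Over bases called in both libraries the log2 difference in pileup was -0.11 in Cthrc1, -0.16 in Serpina3g and -0.05 in Klf5. It was -0.04 in Pimreg and Ranbp6 and -0.0038 in Gstm2. Such bases passed the peak threshold in both libraries, so in weakly marked genes a loss can show mainly as lost coverage. Cthrc1 encodes a secreted collagen triple helix protein of mesenchymal cells, and it lies at chr15:39076932-39087121. It had densities of 0.211 in MEF, 0.174 with B12 alone, 0 with OSKM alone and 0.0489 in OSKM B12. Peaks covered 43.0% of the body in MEF, 36.2% in MEF B12 and 11.6% in OSKM B12, and there was no peak in OSKM. The OSKM B12 to MEF ratio was 0.231 (0.171 to 0.313). The sequence window of this gene lies inside a MEF peak that OSKM B12 did not call.

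Klf5, a Krüppel-like transcription factor at chr14:99298691-99315036, had 0.224 in MEF, 0.259 with B12 alone, 0 with OSKM alone and 0.112 in OSKM B12, a ratio of 0.501 (0.421 to 0.595). Pimreg, a gene of mitotic cells, had 0.199, 0.160, 0.0435 and 0.0483, so that OSKM B12 stayed next to OSKM. Serpina3g, a serine protease inhibitor, had 0.226, 0.275, 0.0169 and 0.119. In these 3 genes the libraries with doxycycline were the lower pair. Ranbp6 and Gstm2 differed from them, since MEF B12 was low as well. Ranbp6 had 0.133 in MEF and between 0.0294 and 0.0456 in the other libraries, and Gstm2 had 0.142 in MEF and between 0.0440 and 0.0768 elsewhere. Gstm2 and Serpina3g belong to clustered families of similar genes, and since only uniquely aligned reads were kept, their densities are uncertain.

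The largest rises by the same rule were those of Ghdc, Card10, Tek, Pradc1, Izumo4 and Lbp. Of the 12 genes with the largest falls and rises, 10 (all but Pradc1 and Izumo4) did not reach the coverage minimum when the peaks were limited to those of −log10 q 5 or more. Card10, a scaffold of NF-κB signalling at chr15:78775138-78803042, had 0.0556 in MEF, 0.0558 with B12 alone, 0.0463 with OSKM alone and 0.271 in OSKM B12. Peaks covered 15.2% of the body in MEF and 54.1% in OSKM B12, and the OSKM B12 to MEF ratio was 4.87 (4.13 to 5.75). Only the OSKM B12 library stood apart. Tek encodes the angiopoietin receptor of endothelial cells and spans chr4:94739289-94874976. It had 0.00993, 0.0144, 0.0299 and 0.128, with 7, 7, 17 and 31 peaks in the body. Its ratio was 12.9 (10.9 to 15.2), and both libraries with doxycycline were above both without it. Coverage was 2.84% in MEF and 26.6% in OSKM B12, and over bases called in both the log2 difference in pileup was 0.59. The interval does not cover error in which bases passed the peak threshold. Tek was the 1 endothelial marker above the MEF level among the 3 compared, and the list had a median log2 change of -0.30. The other 2 were below it: Flt1, a receptor for vascular endothelial growth factor, went from 0.101 in MEF to 0.0726 in OSKM B12, and Egfl7, whose body overlaps another gene, from 0.0953 to 0.0666. Pecam1, Cdh5 and Tie1 had no peak in any library, and Kdr had a density of 0.00277 in OSKM B12.

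Lbp, which encodes the lipopolysaccharide-binding protein, had 0.0461 in MEF, 0.0937 with B12 alone, 0.0318 with OSKM alone and 0.207 in OSKM B12, a ratio of 4.49 (3.72 to 5.42). Ghdc had 0.0388, 0.128, 0.109 and 0.226. In Pradc1, with 0.0525 in MEF and 0.250 in OSKM B12, the 4 libraries had the same order as in Ghdc. Izumo4 had 0.117 in MEF and 0.396 in OSKM B12. In these 4 genes MEF B12 was above MEF too, whereas in Card10 those libraries were level.

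**Figure D4:**
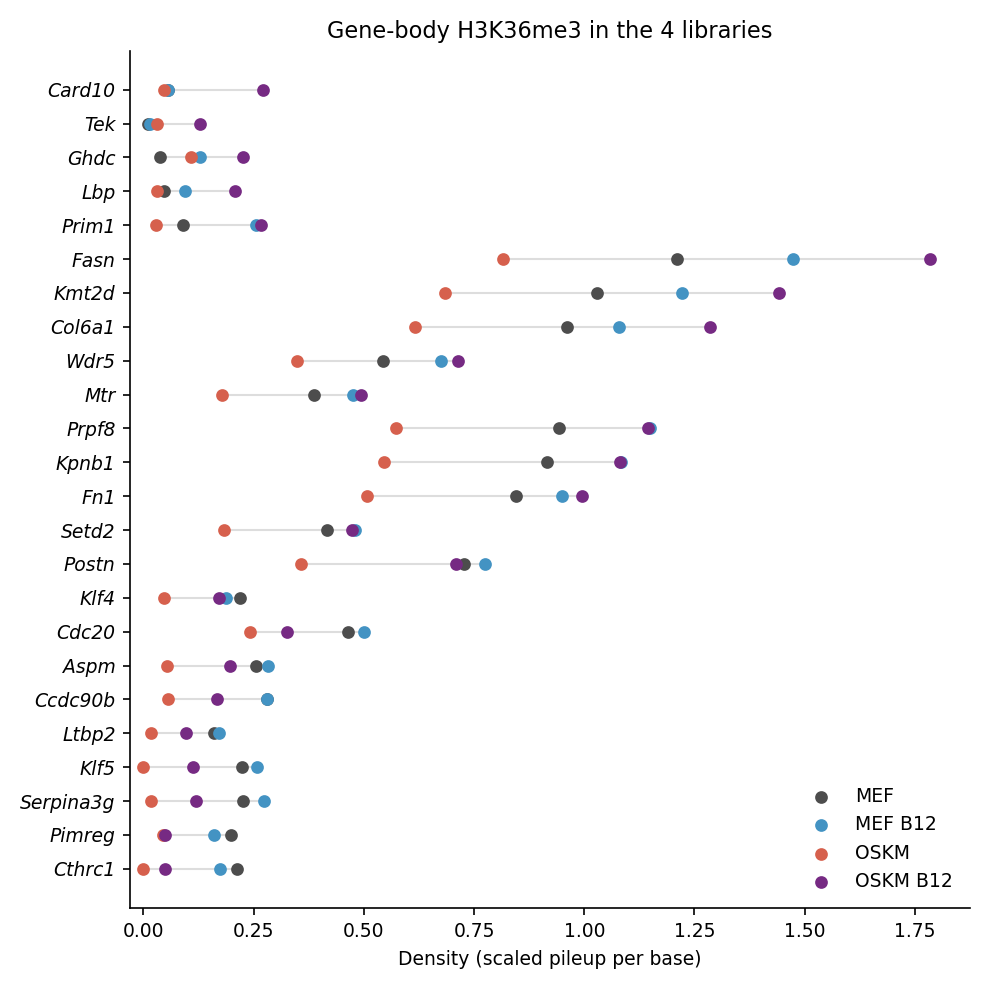
Density (x axis, scaled pileup per base) of 24 named genes (y axis) in the MEF, MEF B12, OSKM and OSKM B12 libraries, 1 point per library. OSKM B12 is the rightmost point from Card10 to Mtr, lies close to MEF B12 from Prpf8 to Setd2, and lies left of MEF from Postn to Cthrc1.

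In a search made after the values were seen, 49 of the 9562 genes were at least 2-fold higher in OSKM B12 than in each other library, with 0.05 added. The same search gave 7 genes for MEF, 4 for MEF B12 and 3 for OSKM. Coverage in MEF B12 did not count toward the genes compared, so genes marked only there could not appear. The 4 for MEF B12 therefore cannot be set against the 49. The 49 had a median length of 2719 bases. Of these, 28 had no peak in the other libraries and so were compared through their OSKM B12 coverage alone. Csf3, the granulocyte colony-stimulating factor gene, had 0.197 in OSKM B12 over 2367 bases and no peak elsewhere. Adm, which encodes the vasodilator peptide adrenomedullin, had 0.0715 and no peak elsewhere. Cdkn1c, an imprinted inhibitor of cyclin-dependent kinases, had 0.0812 in MEF, 0.0607 with B12 alone, 0 with OSKM alone and 0.307 in OSKM B12, with coverage of 21.2% in MEF and 71.0% in OSKM B12. Naglu, a lysosomal enzyme of heparan sulfate breakdown, had 0.0428, 0.0562, 0.0456 and 0.172 in that order. With 1 library a side, no spread is known for such single-library patterns.

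In another pattern, 16 of the 9562 genes had no peak in either library with doxycycline, although peaks covered at least 10% of the body in both libraries without it. The opposite was seen in 3 genes. Over all 9562 genes, 410 had no peak in OSKM and 49 had none in OSKM B12, beside 129 in MEF and 105 in MEF B12. Snai2, the Slug transcription factor that keeps cells mesenchymal, was among the 16, with 0.0496 in MEF and 0.0557 in MEF B12. Cnn1, the smooth muscle protein calponin, had 0.0427 and 0.0615. Fzd2, a Wnt receptor, had 0.0861 and 0.0944, and Dsel, an enzyme of dermatan sulfate synthesis, had 0.0654 and 0.136. These were weakly marked genes in MEF, below the mean of 0.305 over all genes. Ovol1 and Rps21, members of lists described here, were also among the 16.

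Of the mesenchymal transcription factors, 21 of 28 were compared. There were 7 above the MEF level, 13 within it and 1, Snai2, below it, 33.3% and 4.76% of the list beside 43.0% above and 1.77% below over all genes. Their median log2 change was 0.22. Fosl2 and Snai1, the most strongly marked, had 0.627 and 0.506 in MEF and 0.720 and 0.572 in OSKM B12. Fosl1 had the largest change with 0.71, from 0.0658 to 0.140, and overlaps another protein-coding gene over 32.9% of its body. Snai1 was thus within the limit of the MEF level while Snai2, its relative, remained without a peak in OSKM B12. The class of Snai1 depended on the peak threshold, since its log2 change of 0.16 became 3.64 with peaks of −log10 q of at least 5.

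Among fibroblast markers, 9 (39.1%) were above, 14 within and 0 below, beside 43.0% above and 1.77% below over all genes. Their median log2 change was 0.23, and none of the 23 differed from the median shift of all genes by 0.3 or more. Col6a1 had 0.961 in MEF, 1.08 with B12 alone, 0.617 with OSKM alone and 1.28 in OSKM B12. Fn1 (fibronectin) had 0.845, 0.949, 0.508 and 0.996. Postn (periostin) had 0.728, 0.774, 0.358 and 0.710, and its ratio of 0.976 (0.921 to 1.03) did not differ from 1 beyond counting error. No fibroblast marker compared was below the MEF level in OSKM B12 by the limit of 0.3.

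The contractile apparatus had 24 genes compared, of which 10 (41.7%) were above, 13 within and 1, Cnn1, below, with a median of 0.25, beside the same 43.0% and 1.77% over all genes. Tln1 (talin) had 1.02 in MEF and 1.34 in OSKM B12, and Flnc (filamin C) had 0.903 and 1.14. The smooth muscle genes Myl9 and Acta2 had log2 changes of -0.16 and -0.14, more than 0.3 under the shift of all genes. With Cnn1 they were the 3 of 24 genes (12.5%) that far under it, beside 6.62% over all genes. Tagln, of the same list, had 0.16, within 0.3 of the shift. Acta2 had 0.235 in MEF, 0.321 with B12 alone, 0.0606 with OSKM alone and 0.209 in OSKM B12. Of the TGF-β pathway 24 genes were compared, with the same counts of 10 above (41.7%, beside 43.0%), 13 within and 1 below (4.17%, beside 1.77%) and a median of 0.29. Ltbp2, which encodes a latent TGF-β binding protein of the matrix, was the 1 below, with 0.160, 0.172, 0.0179 and 0.0964 and a ratio of 0.601 (0.555 to 0.652). Smad3, the signal transducer, had 0.0606 in MEF and 0.107 in OSKM B12.

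H3K36me3 was not detected over most epithelial and pluripotency genes. Among early epithelial genes 5 of 26 were compared, and 20 of the 26 had no peak in OSKM B12, including Cdh1, Epcam, Krt8 and Krt18. Esrp2, an epithelial splicing regulator, had 0.249 in MEF and 0.351 in OSKM B12, and Jup (plakoglobin) had 0.327 and 0.436, levels already present in fibroblasts. Among pluripotency genes 6 of 27 were compared, and Pou5f1, Sox2 and Nanog had no peak in any library. Of the 6 compared, 1 (Myc) was above the MEF level, 4 were within it and 1 (Klf5) was below it. Klf2, Klf4 and Klf5 had log2 changes of -0.26, -0.28 and -0.76, each more than 0.3 under the shift of all genes. They were 3 of the 6, beside 6.62% of all genes that far under it. Tet1 and Trim28 had 0.16 and 0.22, within 0.3 of the shift, and Myc was more than 0.3 over it. Klf4 had 0.218 in MEF, 0.188 with B12 alone, 0.0462 with OSKM alone and 0.171 in OSKM B12. Its ratio of 0.782 had a counting interval of 0.599 to 1.02. Myc, by contrast, had 0.0471, 0.140, 0.0649 and 0.132, with both libraries that had B12 above both that did not.

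Genes of vitamin B12 handling and one-carbon metabolism had 28 members compared, of which 15 (53.6%) were above, 13 within and 0 below, beside 43.0% above and 1.77% below over all genes. Their median log2 change was 0.32. It was 1.00 over the 18 members still compared with peaks of −log10 q of at least 5, beside 0.36 over all genes at that setting. Those peaks numbered 10010 in MEF and 13087 in OSKM B12. A member can stay compared through OSKM B12 after its MEF peaks fall under the threshold, so no conclusion is drawn from the larger median. Mtr, methionine synthase itself, had 0.388 in MEF, 0.476 with B12 alone, 0.179 with OSKM alone and 0.493 in OSKM B12, a ratio of 1.27 (1.21 to 1.33). With the stricter peaks the log2 change of Mtr was 2.35 in place of 0.31. Cd320, the receptor for B12 bound to transcobalamin, had 0.101, 0.0435, 0 and 0.115. Its OSKM B12 to MEF ratio of 1.14 (0.829 to 1.56) did not differ from 1 beyond counting error. Relative to the shift of all genes, 6 members were higher, among them Gnmt, Mmachc, Mtrr, Shmt2 and Shmt1, with log2 changes of 0.99, 0.88, 0.73, 0.71 and 0.57, and 1 was lower, Mmadhc with -0.07. These were 21.4% and 3.57% of the list, beside 9.31% higher and 6.62% lower over all genes after centring. In the other lists with at least 15 genes compared, the share higher ranged from 0% (glycolysis among them) to 20.75% (cytosolic ribosomal proteins). It was 17.95% for DNA replication and cell cycle, so the share was not particular to one-carbon metabolism. From MEF to MEF B12 the log2 changes of Gnmt, Mmachc, Mtrr, Shmt2 and Shmt1 were -0.35, 0.85, 0.50, 0.80 and 0.39. With the stricter peaks Mmadhc had 0.59 and Gnmt 2.96. Mmachc and Mmadhc encode partners of intracellular cobalamin processing, and Mtrr reactivates methionine synthase. Gnmt, which uses S-adenosylmethionine to methylate glycine, had 0.146, 0.104, 0.0276 and 0.340.

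Of the enzymes that write or erase H3K36 methylation and their partners, 15 were compared, with 5 (33.3%) above, 10 within and 0 below, beside 43.0% above and 1.77% below over all genes, and a median of 0.24. Setd2, the trimethylase, had 0.417 in MEF, 0.481 with B12 alone, 0.184 with OSKM alone and 0.473 in OSKM B12, and its ratio was 1.13 (1.08 to 1.18). Kdm4a, a demethylase, had 0.846, 0.974, 0.549 and 1.09. Supt6, an elongation factor that travels with RNA polymerase II, had 0.663 in MEF and 0.848 in OSKM B12. None of the 15 differed from the shift of all genes by 0.3 or more. Wdr5, a subunit of H3K4 methyltransferase complexes, had 0.544, 0.674, 0.348 and 0.715, a ratio of 1.31 (1.22 to 1.41).

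DNA replication and cell cycle genes had 39 members compared. Of these, 16 (41.0%) were above, 23 within and 0 below, beside 43.0% above and 1.77% below over all genes. The list median was 0.26. It was 0.42 over 31 members with the stricter peaks, beside 0.36 over all genes at that setting, which kept more peaks in OSKM B12 than in MEF. Prim1, the catalytic subunit of DNA primase, changed most, with 0.0901 in MEF, 0.255 with B12 alone, 0.0281 with OSKM alone and 0.267 in OSKM B12, a ratio of 2.97 (2.46 to 3.58). Coverage of its body was 18.5% in MEF and 57.3% in OSKM B12. Over bases called in both, the log2 difference in pileup was -0.13. Each base carried the pileup of its whole peak, so breadth and height cannot be fully separated for this gene. Mcm4, a helicase subunit, had 0.639, 0.680, 0.321 and 0.585. The list thus spanned changes from -0.12 to 1.18.

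Glycolysis had 12 of 18 genes (66.7%) above, 6 within and 0 below, beside 43.0% above and 1.77% below over all genes, with a median of 0.34. Pkm and Gpi1 had 0.691 and 0.707 in MEF and 0.889 and 0.905 in OSKM B12, and Tpi1 had 0.312 and 0.317. Of 53 cytosolic ribosomal protein genes, 26 (49.1%, beside 43.0%) were above, 26 within and 1 (1.89%, beside 1.77%), Rps21, below, with a median of 0.30. Rps19 had 0.674 in MEF and 0.868 in OSKM B12, while Rps27 had 0.0754 and 0.276. Ribosomal protein genes have many processed copies in the genome, and reads that fit more than 1 place were not kept, so these values are uncertain. Of 39 oxidative phosphorylation subunits, 13 (33.3%, beside 43.0%) were above, 25 within and 1 (2.56%, beside 1.77%), Cox5b, below, with a median of 0.22. Atp5b had 0.790 and 0.924, and Ndufb3 had 0.0307 and 0.111. The list medians, from 0.22 to 0.34 for lists with at least 15 genes compared, lay within the quartiles of all genes. A list median varies less than single genes do, so this cannot show whether a list differed from the rest.

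The change from MEF varied with the base composition of the gene body. Over 5 equal groups of genes, from the lowest to the highest G+C content, the median log2 change from MEF to OSKM B12 was 0.14, 0.22, 0.28, 0.34 and 0.39, and the share of genes above the MEF level was 12.8%, 24.8%, 43.4%, 63.6% and 70.6%. The change from MEF to OSKM varied the same way, from -0.93 to -0.54, whereas the change from MEF to MEF B12 was between 0.20 and 0.22 in every group. Across the 9562 genes, Spearman's rho with G+C content was 0.47 for OSKM B12 against MEF, 0.43 for OSKM against MEF and -0.03 for MEF B12 against MEF. Genes are not independent replicates, and the 3 comparisons share the MEF library.

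**Figure D5:**
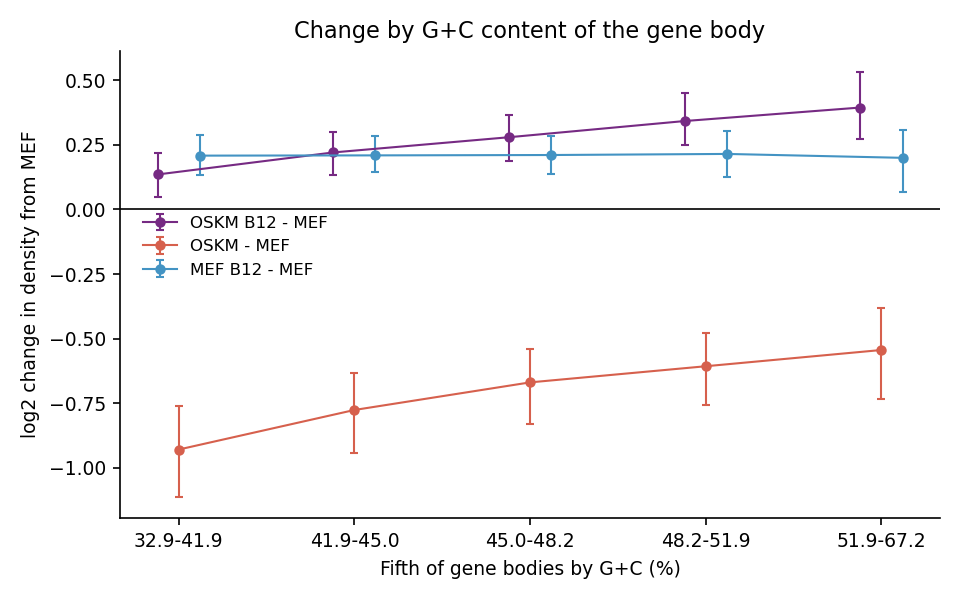
Median log2 change in density from MEF (y axis, bars for quartiles over genes) in 5 groups of gene bodies by G+C percent (x axis), for OSKM B12, OSKM and MEF B12, 1 library each. The OSKM B12 medians go from 0.14 to 0.39 and the OSKM medians from -0.93 to -0.54, while the MEF B12 medians stay between 0.20 and 0.22.

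Genes rich in G+C are also shorter, with a median length of 8066 bases in the highest group and 41290 in the lowest. When the genes were also divided into 5 groups by length, the median change in the longest group still went from 0.15 to 0.40 between the lowest and the highest G+C group, and in the shortest group from 0.10 to 0.39. Bases called only in MEF had a G+C content of 42.7%, those called only in OSKM B12 had 45.0% and those called in both had 45.9%. Chromosome medians ranged from 0.19 on chromosome 13, where the median gene body had 43.1% G+C, to 0.31 on chromosome 7, where it had 49.4%. G+C content thus moved with membership of the overshot and returned classes, and its part in the result was not tested.

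Finally, 115 genes were covered over at least 10% in OSKM B12 and had no MEF peak, and 38 genes were covered as much in MEF and had no OSKM B12 peak. Of the 115, 79 had no OSKM peak either and 65 had a MEF B12 peak. Of the 38, 32 had no OSKM peak and 24 had a MEF B12 peak. Both sets were short, with median lengths of 3971 and 3448 bases. No ratio is given for them, since a library without a peak shows only that no enrichment was called at this depth.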

How the data were processed

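The data were 4 H3K36me3 ChIP libraries and their 4 inputs, 1 of each per condition. Reads had been aligned by the authors (Bowtie 0.12.9, mm10, unique alignments), the 2 runs per library merged, duplicates removed and broad peaks called with MACS2 2.2.6 at q-value cut-offs of 0.05 and 0.1. Inputs entered through the peak calling. The authors' pileup is a signal of extended fragments over a peak, and every base of a peak carried the value of that peak. The deposited fold enrichment is a ratio of pileup to local input, and the deposited −log10 p and q values give significance. The p and q values only filtered or ranked peaks.

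Densities, intersections and intervals were computed with Python 3.11, numpy 2.4.6, pandas 2.3.3 and scipy 1.17.1 and tested on simulated data. Tags per gene, used for the intervals, were estimated from pileup, overlap and fragment length. Log2 changes had a pseudocount of 0.05, which makes changes of weakly marked genes smaller. The genes named had the 6 largest changes in each direction (at least 3000 bases, overlap with other genes of at most 10%, coverage of at least 20%, the same direction by every measure), the 4 highest levels per class (with the same limits of length and overlap), the highest and most changed members of each list, and Setd2, Mtr, Cd320, Wdr5 and the reprogramming factors. Some further genes were named after their values were seen. A few genes that the rule names are not reported here. Members and lists were chosen with earlier results of these data known. Densities of overlapping or antisense genes cannot be told apart, since ChIP has no strand. Peaks on chromosomes X and Y entered no gene comparison.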

Additional observations from a re-analysis of the deposited data

Results flagged for a closer look

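Peaks on the sex chromosomes were outside the comparison of gene bodies and are given here for that reason. On chromosome X the length covered by peaks was 3.13 Mb in MEF, 3.23 Mb with B12 alone, 0.959 Mb with OSKM alone and 3.15 Mb in OSKM B12, so that OSKM B12 covered 1.005 times the length of MEF, beside 1.08 over chromosomes 1 to 19. The mean scaled pileup of these peaks was 0.372 in MEF and 0.426 in OSKM B12. On chromosome Y, with 79 peaks in MEF and 74 in OSKM B12, peaks of OSKM B12 covered 0.908 of the length that MEF peaks did. With 1 library a side these differences have no replicate check.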

How the results depend on the processing

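With 1 library per condition, the limits are those of depth and of the peak threshold: a gene without a peak had no enrichment detectable at this depth, and differences between cultures or immunoprecipitations cannot be told apart from differences between conditions. No paired analysis was possible because no condition had more than 1 library. Bases outside peaks did not enter, so changes of weakly marked genes carry the calling threshold.

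The median log2 change from MEF to OSKM B12 stayed positive under every alternative that did not centre it. It was 0.36 with peaks of −log10 q of at least 5, 0.15 without division by tags, 0.30 with a pseudocount of 0.01, 0.18 with one of 0.2, 0.28 for genes covered over at least 30%, 0.26 for genes that overlap no other, and 0 by construction when centred on the median or within 5 groups of G+C content. The ratio of covered shares was 1.20 with the stricter peaks and 1.066, 1.063, 1.065 and 1.069 with equal numbers of peaks, coverage of at least 30%, the longest transcripts with at least 4 exons and genes without overlap. The pileup ratio over shared bases was 1.19 with the stricter peaks, 1.07 without division by tags, 1.175 with coverage of at least 30%, 1.168 for genes without overlap, and 1.12 with fold enrichment in place of pileup.

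The counts moved more. Genes above the MEF level numbered 2085 without division by tags, 1946 with a pseudocount of 0.2 and 765 with a limit of 0.6, and overshot genes 1510, 1174 and 188. Genes below the MEF level numbered 58 with a pseudocount of 0.2, 59 with coverage of at least 30% and 80 with a limit of 0.6, and those that stayed below 54, 59 and 75. Returned genes numbered 2474 with the stricter peaks. Centred on the median, 890 were above, 633 below, 1297 returned, 76 overshot and 362 stayed below, where the change in OSKM was centred too. Centred within 5 groups of G+C content, an alternative added after the data were seen, these counts were 721, 572, 1063, 68 and 292. The 80 named genes and the lists were run under 7 alternatives. Where they were still compared, no called change and no list median past 0.3 changed sign, but many changed in size. Other pseudocounts, centring on the median and leaving out the division by tags could not turn the sign of a change past 0.3. Only the alternatives that altered the set of peaks could have done so.

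With −log10 q of at least 5, 26 of the 80 named genes fell under the coverage minimum, 43 stayed near their value and 11 moved. That setting kept 10010 peaks in MEF, 2166 in OSKM and 13087 in OSKM B12. Changes at this setting can therefore grow where MEF peaks fell under the threshold and OSKM B12 peaks did not. Log2 changes went from 0.16 to 3.64 in Snai1, 0.99 to 2.96 in Gnmt, 1.42 to 2.40 in Izumo4, 0.31 to 2.35 in Mtr, 0.91 to 1.55 in Myc, 0.37 to 0.88 in Jup, 0.36 to 0.62 in Wdr5, -0.07 to 0.59 in Mmadhc, 0.54 to 0.14 in Smyd2, -0.32 to -0.52 in Egfl7 and -0.61 to -1.13 in Ccdc90b. Of 14 list medians 5 moved: one-carbon metabolism from 0.32 to 1.00 (18 members left), DNA replication and cell cycle from 0.26 to 0.42 (31), pluripotency from -0.05 to 0.89 (2), early epithelial from 0.01 to 0.65 (2) and endothelial from -0.30 to -0.52 (1). With a pseudocount of 0.01, 25 genes and 0 lists moved, and with one of 0.2, 31 genes and 1 list, the endothelial one, to -0.14.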

Other observations

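The highest density was that of Gm10800, a predicted gene of 755 bases on chromosome 2, with 9.01 in MEF, no peak with OSKM alone, and values within 1% of each other in MEF B12 and OSKM B12. Its neighbour Gm10801, of 1847 bases, had no peak in MEF or OSKM, 2.75 in MEF B12 and 3.35 in OSKM B12. Both are among the 9562 genes compared and enter the counts and means over all genes, and neither is in a gene list.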
